A study of Mus musculus with 9 samples.

Results

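The immediate early response genes were examined in the liver of mice on a high-fat diet (HFD) whose chow came from the freezer or from the fridge. They comprised 10 genes, Fos, Fosb, Jun, Junb, Jund, Egr1, Ier2, Ier3, Zfp36 and Dusp1, chosen by symbol among the 33211 genes of the count table. All 10 were found in the table, and 9 of them were among the 14220 genes with enough counts for a test. Fosb was the gene left out.

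The animals were C57BL/6 mice (C57BL6/J in the methods of the study), male per the same methods, 8 weeks old at the start and 7 weeks on the diet. HFDfre denotes the group whose diet was stored in the freezer, at -20 °C, and HFDfri the group whose diet was stored in the fridge, at 4 °C, in each case for 7 days before use. Both groups ate the high-fat diet, so no library from mice on another diet entered the comparison. There were 5 HFDfre and 4 HFDfri libraries of whole liver, with 58614917 to 69353439 estimated counts each. The labels do not say that each library came from a separate mouse, so p-values measure the spread between these libraries.

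Immediate early genes are transcribed within minutes of a stimulus without the need for newly made protein. Mitogen-activated protein kinases act on serum response factor and its partners, and cyclic AMP acts through CREB, at the promoters of these genes. Their transcripts are short-lived, and in liver they are known to rise after partial resection, hormone treatment and handling of the tissue. Fos and Fosb pair with Jun, Junb or Jund to form the transcription factor AP-1. Egr1 is a zinc finger transcription factor, Ier2 and Ier3 are small early response proteins, Zfp36 (tristetraprolin) promotes decay of mRNAs with AU-rich elements, and Dusp1 removes phosphate from MAP kinases.

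The promoters of 8 members were in the RefSeq windows for GRCm38.p6, and Egr1 and Ier2 had none there. The upstream bases used for Jund, chr8:70697489-70697738, did not adjoin the gene's start in GENCODE M21, which lies at 70698949. Those for Dusp1 and Zfp36 lay inside the genes as annotated in GENCODE M21, which start at 26562128 and 28380253 on the minus strand. Those for Fosb, Junb and Ier3 missed the GENCODE M21 start by much less. The 250 bases upstream of the start site are printed for Fos, Junb, Dusp1 and Zfp36, since each carried a searched motif and their highest levels fell in different libraries, Dusp1 and Zfp36 sharing one. Capitals mark the motif matches, and positions are counted back from the start site of the RefSeq window.
Fos, chr12:85473640-85473889, plus strand: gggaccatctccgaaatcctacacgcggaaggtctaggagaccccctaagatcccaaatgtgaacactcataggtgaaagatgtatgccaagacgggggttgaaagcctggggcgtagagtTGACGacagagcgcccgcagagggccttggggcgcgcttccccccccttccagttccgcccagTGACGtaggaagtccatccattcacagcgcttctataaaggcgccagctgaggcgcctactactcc
Junb, chr8:84978749-84978998, minus strand: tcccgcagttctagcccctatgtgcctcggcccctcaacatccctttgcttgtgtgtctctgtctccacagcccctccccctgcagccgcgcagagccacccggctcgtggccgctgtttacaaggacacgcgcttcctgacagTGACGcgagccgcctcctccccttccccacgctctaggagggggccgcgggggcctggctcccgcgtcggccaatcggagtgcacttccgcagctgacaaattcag
Dusp1, chr17:26508473-26508722, minus strand: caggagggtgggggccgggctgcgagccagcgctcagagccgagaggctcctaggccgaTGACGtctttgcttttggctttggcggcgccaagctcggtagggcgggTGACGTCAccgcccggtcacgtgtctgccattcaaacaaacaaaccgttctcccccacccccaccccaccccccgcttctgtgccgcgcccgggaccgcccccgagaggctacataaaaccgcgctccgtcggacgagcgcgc
Zfp36, chr7:28379229-28379478, minus strand: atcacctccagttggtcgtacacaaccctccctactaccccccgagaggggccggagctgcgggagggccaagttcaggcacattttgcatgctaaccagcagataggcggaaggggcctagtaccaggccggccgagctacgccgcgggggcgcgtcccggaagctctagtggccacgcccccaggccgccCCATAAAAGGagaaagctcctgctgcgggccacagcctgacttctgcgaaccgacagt
The promoter of Zfp36 held the only match among the 8 to the CArG box, the site bound by serum response factor, at -58 to -49. The promoter of Dusp1 held the only match to the palindromic cyclic AMP response element TGACGTCA, at -143 to -136. The shorter element TGACG, which the longer one contains, was found upstream of Fos, Fosb, Junb and Dusp1, at -129 and -66 in Fos, at -60 in Fosb, at -106 in Junb and, on the same strand, at -191 and -143 in Dusp1. The AP-1 element TGANTCA was found in none of the 8. The windows searched also ran a short way past the start site. Searched on both strands, the CArG box was present in 1.63% of all 32851 windows, TGACGTCA in 1.79%, TGACG in 20.8% and TGANTCA in 7.81%. A match, or the lack of one, is a description of the letters in this window, and bases farther upstream were not searched.

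Per kilobase of exon, the members spanned a wide range of levels. In HFDfre, Zfp36 was highest at 15.1 ± 4.32 CPM per kb (SD, n = 5), where CPM is the usual depth-scaled read count of a gene, on library sizes corrected by the TMM method. Jund followed at 11.9 ± 4.84 and Ier2 at 10.2 ± 2.12 CPM per kb (SD, n = 5), and these neighbours differed by less than their SDs. A middle group was formed by Dusp1 (5.62 ± 2.99), Junb (5.13 ± 1.56) and Jun (3.17 ± 1.46), with Egr1 below them at 0.756 ± 0.222 CPM per kb. Fos (0.278 ± 0.123) and Ier3 (0.249 ± 0.119) were close to each other, and Fosb was lowest at 0.0229 ± 0.0111 CPM per kb. In HFDfri the same genes led, with Zfp36 at 14.4 ± 2.05, Ier2 at 9.86 ± 3.66 and Jund at 9.05 ± 3.80 CPM per kb (SD, n = 4), and Ier2 and Jund differed by less than their spread. Among the members, the transcripts of Zfp36, Jund and Ier2 were the most abundant per kilobase in both groups, whereas the best known member, Fos, was near the bottom.

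None of the 9 tested members differed between HFDfri and HFDfre at an adjusted p under 0.05 in edgeR's quasi-likelihood test, against 1.05% of all 14220 genes tested. limma-voom called 0 members as well, and DESeq2, which called 7.26% of all genes tested, called 0 of the 7 members with an adjusted p, giving none for Egr1 and Ier3. At an unadjusted p under 0.05 the count was 1, Egr1, against 21.2% of all genes tested. In HFDfri, 4 members had a higher and 5 a lower fitted value, with a median log2 fold change of -0.04, beside -0.01 over all genes. In 0 of the 9 members did the values of the groups not overlap, against 7.69% of all genes. The plot of the fold changes shows Egr1 apart from the other members.

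**Figure D1:**
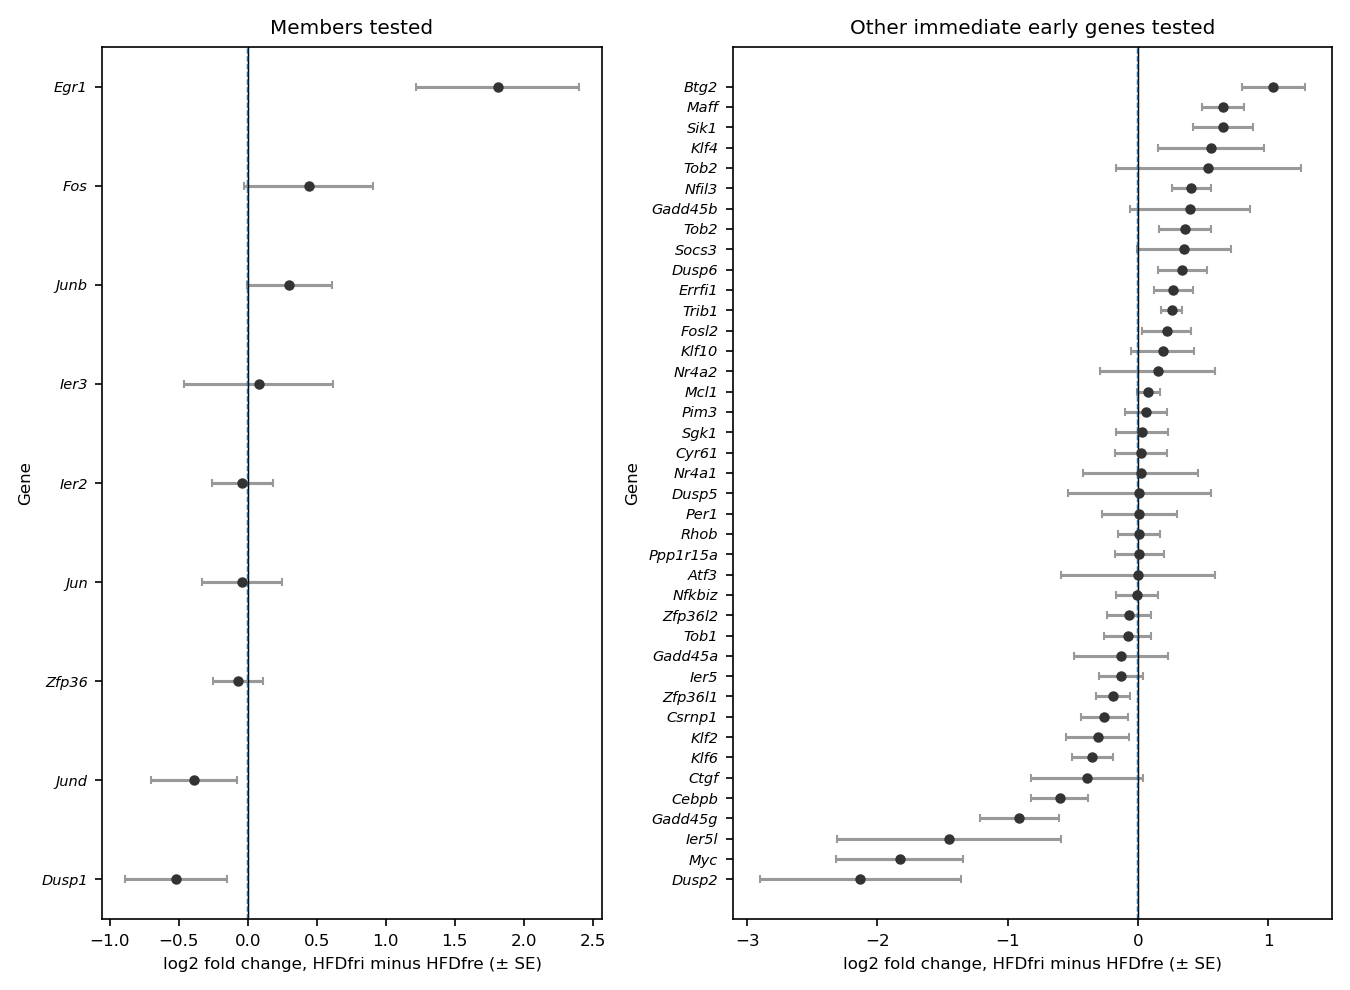
Log2 fold change (HFDfri minus HFDfre, horizontal axis) with its SE for the 9 tested members (left) and the 40 other immediate early gene rows tested (right; Tob2 has 2 rows), with the solid line at 0 and the dashed line at the median of all genes. Egr1 lies at 1.81 and the other members between -0.52 and 0.44.

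Egr1 carried the largest difference among the members, and it rested on a single library. In HFDfre 1 to 5 its level was 4.79, 3.80, 3.49, 2.50 and 2.38 CPM. In HFDfri 1 to 4 it was 34.1, 4.80, 4.98 and 3.62 CPM. HFDfri 1 stood above every other library, and the other 3 HFDfri libraries overlapped with HFDfre. The log2 fold change was 1.81 ± 0.59 (SE), with an adjusted p of 0.122 in edgeR's quasi-likelihood test. Without HFDfri 1 the mean of HFDfri was 4.47 ± 0.739 CPM (SD, n = 3), beside 3.39 ± 0.996 CPM in HFDfre (SD, n = 5), and the log2 fold change was 0.39 (adjusted p = 0.320, edgeR). The high value was backed by 1914 estimated counts, against 170 to 367 in the other 8 libraries. The gene lies at chr18:34859823-34864984 on the plus strand (GENCODE M21, GRCm38), and no other annotated gene overlaps it.

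Junb and Ier2 were also highest in HFDfri 1, but by much less. Junb, an AP-1 partner often ascribed a restraining role on Jun, measured 15.5, 10.5, 15.3, 10.9 and 6.97 CPM in HFDfre 1 to 5. In HFDfri 1 to 4 it measured 24.3, 7.37, 11.6 and 15.1 CPM. HFDfri 1 was the top library and the remaining HFDfri values lay within the range of HFDfre. The log2 fold change of Junb was 0.30 ± 0.31 (adjusted p = 0.614, edgeR), and it was -0.07 without HFDfri 1. Junb overlaps Prdx2, a peroxiredoxin gene on the other strand, at chr8:84974484-84978718, and the use of strand in counting is not given in the sources used here. Prdx2 measured 100.8 CPM in HFDfri 1 and 81.2 to 110.6 CPM in the other libraries, so it did not stand out where Junb did. Ier2 was the steadier of the pair, with 11.9 to 20.5 CPM in HFDfre and 23.3, 13.0, 12.5 and 11.4 CPM in HFDfri 1 to 4. Its log2 fold change was -0.04 ± 0.22 (adjusted p = 0.931, edgeR).

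Jun and Jund, by contrast, peaked in HFDfre 4. Jun, the founding subunit of AP-1, measured 8.36, 4.77, 12.3, 16.9 and 8.27 CPM in HFDfre 1 to 5 and 11.6, 7.76, 10.5 and 9.46 CPM in HFDfri 1 to 4. All 4 HFDfri values lay inside the range of HFDfre, and the log2 fold change was -0.04 ± 0.29 (adjusted p = 0.949, edgeR). Jund, which in many tissues is expressed without stimulation, measured 16.1, 12.0, 25.6, 31.0 and 14.5 CPM in HFDfre and 23.7, 8.68, 12.9 and 15.3 CPM in HFDfri. HFDfre 3 and HFDfre 4 were the highest libraries for Jund and for Jun alike. The log2 fold change of Jund was -0.39 ± 0.31 (adjusted p = 0.510, edgeR), with -0.17 without HFDfre 4, -0.20 without HFDfri 2 and -0.70 without HFDfri 1. On the other strand Jun overlaps the antisense gene Junos and Jund overlaps Gm11175, and the latter was listed at 0 in all 9 libraries.

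Dusp1 and Zfp36, which both limit signalling after a stimulus, were highest in HFDfre 3 and lowest in HFDfre 2. Dusp1 measured 13.0, 6.67, 33, 21.9 and 18.3 CPM in HFDfre 1 to 5 and 8.08, 14.4, 12.0 and 17.3 CPM in HFDfri 1 to 4. HFDfre alone spanned the values of HFDfri, and the log2 fold change was -0.52 ± 0.37 (adjusted p = 0.448, edgeR), or -0.22 without HFDfre 3. Zfp36 measured 46.6, 37.9, 77.6, 52.1 and 47.9 CPM in HFDfre and 44.6, 54.4, 57.7 and 43.3 CPM in HFDfri. Its log2 fold change was -0.07 ± 0.18 (adjusted p = 0.864, edgeR), with the smallest spread of any member. The annotation of Dusp1 runs over Ergic1 and Gm8225 on the other strand and AC122252.1 and AC122252.4 on the same strand, and Zfp36 overlaps Gm44710 on the other strand.

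Fos, Ier3 and Fosb were at low counts. Fos measured 0.809, 0.202, 0.673, 0.604 and 0.980 CPM in HFDfre 1 to 5 and 1.10, 0.346, 1.40 and 0.707 CPM in HFDfri 1 to 4, from 13 to 103 estimated counts. HFDfri 3 was highest and HFDfre 2 lowest, and the groups overlapped (log2 fold change 0.44 ± 0.47, adjusted p = 0.631, edgeR). It was 0.13 without HFDfri 3, 0.20 without HFDfre 2 and 0.71 without HFDfri 2. Ier3, which modulates cell survival, ran from 0.0700 to 0.444 CPM in HFDfre and from 0.142 to 0.444 CPM in HFDfri, with 5 to 29 estimated counts and a log2 fold change of 0.08 ± 0.54 (adjusted p = 0.950, edgeR). Fosb had 8, 5, 6, 18 and 10 estimated counts in HFDfre and 0, 5, 11 and 6 in HFDfri. The 0 in HFDfri 1 allows up to 0.0534 CPM, a limit of 3 counts that covers counting error only, so Fosb was not detectable at this depth in the library where Egr1 was highest. Low values in the table pile up at 4, which was found 3990 times over genes and libraries, while 3 was found 2172 times and 5 was found 1840 times, and the estimated counts of these genes can therefore be uncertain by a few counts.

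**Figure D2:**
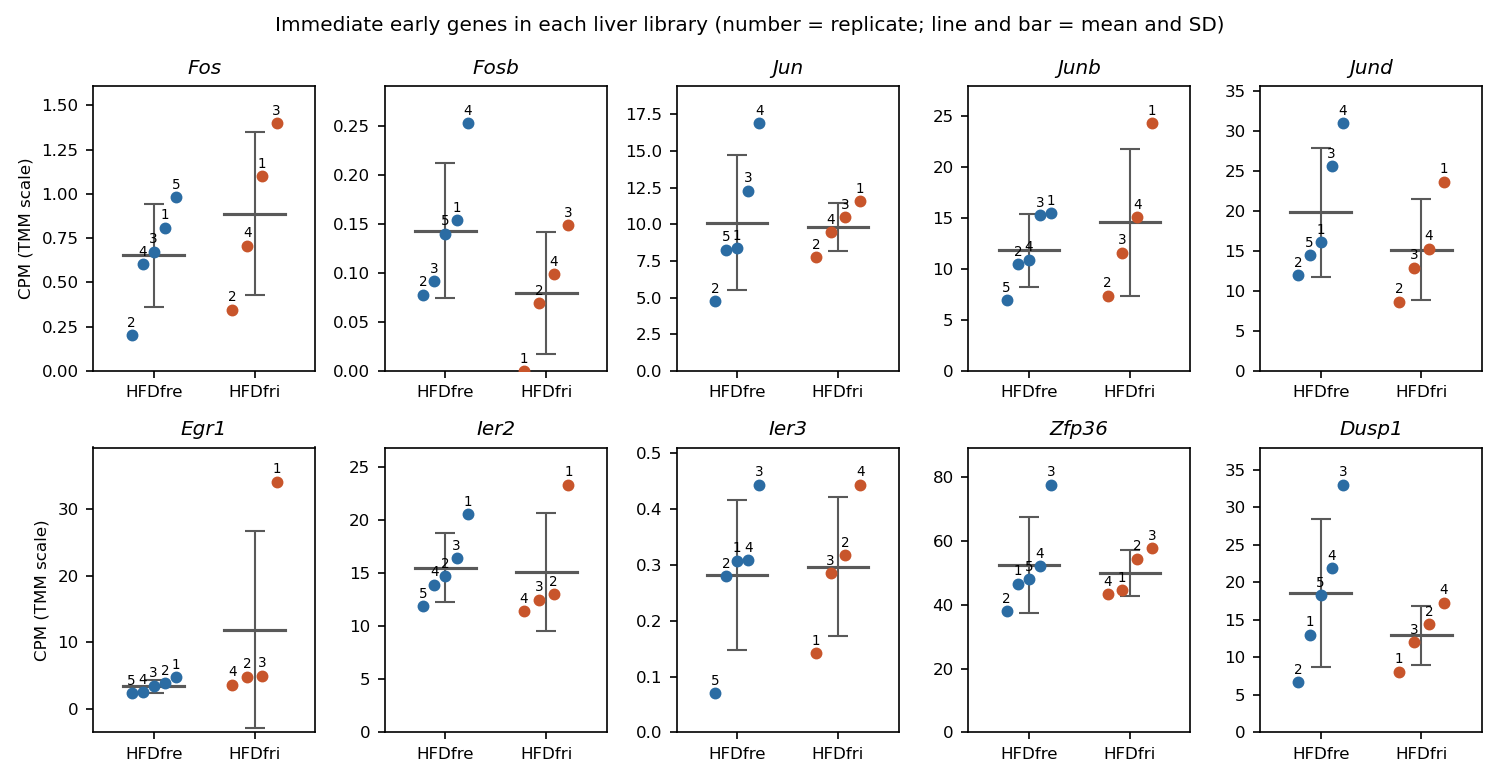
Level of each of the 10 members (vertical axes, CPM on the TMM scale, a separate scale per gene) in the HFDfre (n = 5) and HFDfri (n = 4) libraries, with the replicate number beside each point and the mean and SD of each group. Egr1 in HFDfri 1, at 34.1 CPM, is the single point far from the rest, and the groups overlap for every member.

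The members varied more between libraries of a group than most genes did. The median within-group SD of log2 CPM was 0.59 over the 9 tested members, beside 0.26 over all genes tested. Egr1 (SD 1.02), Fos (0.83) and Ier3 (0.76) varied most, and Zfp36 (0.32) and Ier2 (0.38) varied least. By this SD, Egr1 stood at the 93.6 percentile of all genes tested and Zfp36 at the 59.9 percentile. Fos and Ier3 are also the tested members with the fewest counts, and the part of counting error in their SDs was not tested.

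The question of single-library spikes, asked because such spikes can accompany stress at collection, was addressed by setting each library against the median of the other libraries of its group. A spike was counted at 2 times that median or more, with over 3 counts in the library. In 5 of the 9 tested members at least 1 library spiked, which is 55.6%, against 17.8% of all genes tested. These were Egr1 (7.10 times) and Junb (2.09 times) in HFDfri 1, Jun (2.04 times) and Jund (2.03 times) in HFDfre 4, and Dusp1 (2.11 times) in HFDfre 3. Apart from Egr1, each lay just above the limit, and Fos in HFDfri 3 (1.98 times) lay just below it. The cause of the spikes was not tested. At 3 times the median, Egr1 in HFDfri 1 was the single spike left. When CPM was taken on library totals without TMM scaling, Junb dropped out and Fos in HFDfri 3 entered (2.02 times).

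The members did not move as a block, as the map of standardised levels shows. The highest library was HFDfri 1 for Junb, Egr1 and Ier2, HFDfre 3 for Zfp36 and Dusp1, HFDfre 4 for Jun and Jund, HFDfri 3 for Fos and HFDfri 4 for Ier3. In HFDfri 1, where Egr1 spiked, Dusp1 (8.08 CPM) and Ier3 (0.142 CPM) were the lowest of the HFDfri libraries. Averaged over the 9 members in SD units, HFDfre 3 stood highest (0.80) and HFDfre 2 lowest (-0.91), so both extremes lay in the same diet group. In the plain mean of log2 CPM, HFDfri 1 was highest (3.17) and HFDfre 3 second (3.09), with HFDfre 2 again lowest (2.14). In SD units HFDfri 1 was second at 0.62, HFDfre 4 followed at 0.33, and HFDfre 5 (-0.57) and HFDfri 2 (-0.48) were low. HFDfre 2 was the lowest library for Fos, Jun, Zfp36 and Dusp1.

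**Figure D3:**
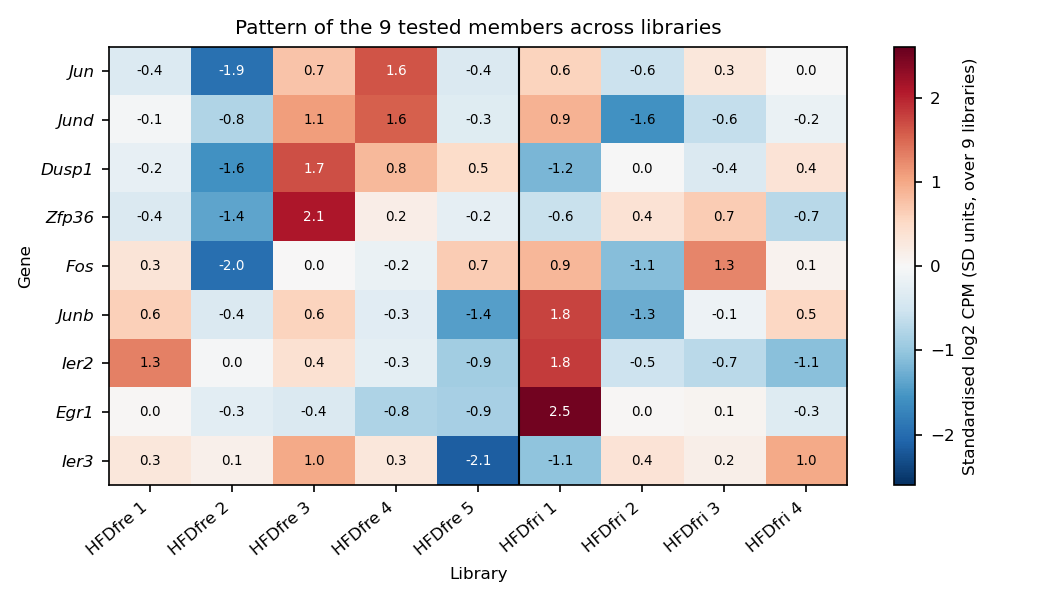
Log2 CPM of the 9 tested members (rows) in the 9 libraries (columns), standardised per gene over all libraries in SD units, with red high and blue low and the vertical line between HFDfre and HFDfri. The high cells fall in different libraries for Jun and Jund, Dusp1 and Zfp36, and Junb, Ier2 and Egr1.

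Whether the other members followed Fos was tested over the 9 libraries for the 8 other tested members. None of the 8 relations passed after Benjamini-Hochberg adjustment, by Pearson's r or Spearman's rho with two-sided exact permutation tests, and 0 had an unadjusted permutation p under 0.05. By Pearson's r the relation with Jun was the strongest, with r = 0.58 (permutation p = 0.106, adjusted 0.602) and rho = 0.32 (permutation p = 0.41, adjusted 0.82). It was also 0.58 on deviations from the group means. It was -0.39 without HFDfre 2 and HFDfri 2, the libraries farthest from the median of Fos, so it rested on those libraries. For Ier3 r was -0.33 (permutation p = 0.392, adjusted 0.602) and rho was -0.40 (permutation p = 0.291, adjusted 0.82).

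Among 10116 other genes, those whose log2 CPM followed the mean standardised level of the members most closely over the 9 libraries were Lrrc32 (r = 0.95), Ptrh2 (0.93), Mrto4 (0.88), Fgf21 (0.87) and Tnip1 (0.86). These are the highest of many correlations and are given as a description. Fgf21, a hormone secreted by the liver, was 1.71 CPM in HFDfre 2, where the members were lowest, and 11.6 CPM in HFDfri 1. Its log2 fold change was 0.39 (adjusted p = 0.640, edgeR). Lrrc32 ranged from 4.61 CPM in HFDfre 2 to 8.44 CPM in HFDfre 3, the same libraries that bound the members.

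A list of other immediate early genes had 45 of its 46 symbols in the table and 40 rows tested. By edgeR 0 passed an adjusted p of 0.05, with 5 higher and 4 lower at an unadjusted p under 0.05, which is 22.5%, near the 21.2% of all genes tested. The median log2 fold change was 0.01, beside -0.01 over all genes. limma-voom called 0 and DESeq2 called 3, namely Btg2, Maff and Myc, which is 7.50%, near the 7.26% of all genes tested. DESeq2 gave no adjusted p for 3 of the 40 rows. Btg2, an antiproliferative gene, was 2.34 to 5.77 CPM in HFDfre and 5.98 to 10.7 CPM in HFDfri, and these ranges did not overlap (log2 fold change 1.04 ± 0.24, adjusted p = 0.0583, edgeR; DESeq2 adjusted p = 0.00138). Myc, the growth-promoting transcription factor, was 12.7, 6.87, 12.5, 2.20 and 2.98 CPM in HFDfre 1 to 5 and 1.57 to 3.04 CPM in HFDfri (log2 fold change -1.83 ± 0.49, adjusted p = 0.0850, edgeR). The first 3 HFDfre libraries were high and the other 2 overlapped with HFDfri. Maff, a small Maf transcription factor, was 3.30 to 4.34 CPM in HFDfre and 4.91 to 7.90 CPM in HFDfri (adjusted p = 0.0701, edgeR). Gadd45g, a growth arrest and DNA damage gene, had a log2 fold change of -0.91 ± 0.30 (adjusted p = 0.130, edgeR), and Sik1, a salt-inducible kinase, had 0.65 ± 0.23 (adjusted p = 0.147, edgeR). Egr3, a relative of Egr1, was at 0 counts in all libraries.

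The spikes of these genes gathered in HFDfri 1 more often than in any other library. There 6 of the 40 tested rows spiked (15.0%), namely Dusp2, Socs3, Dusp5, Ier5l, Gadd45b and Gadd45a, against 0 to 3 in each of the other libraries. Only Socs3 and Gadd45a spiked in HFDfri 1 alone. Dusp2 also spiked in HFDfre 3, Dusp5 in HFDfre 1, Gadd45b in HFDfre 4, and Ier5l in HFDfre 4 and HFDfri 4. Dusp2 (0.178 CPM) and Ier5l (0.160 CPM) were low in HFDfri 1, beside up to 0.673 and 0.463 CPM in HFDfre. Dusp2 stood out only against HFDfri libraries close to 0, and Ier5l was higher still in HFDfri 4 (0.181 CPM). HFDfri 1 also had the highest share of all tested genes with a spike, 5.40%. The other HFDfri libraries had 3.39% to 3.70% and the HFDfre libraries 1.75% to 3.16%. The median was taken over fewer libraries in HFDfri than in HFDfre, and the part of this in the shares was not tested. Socs3, the feedback inhibitor of cytokine signalling, was 15.8 CPM in HFDfri 1 and 3.83 to 9.20 CPM in the other libraries. Over all libraries, 12 of the 40 rows (30.0%) spiked at least once.

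**Figure D4:**
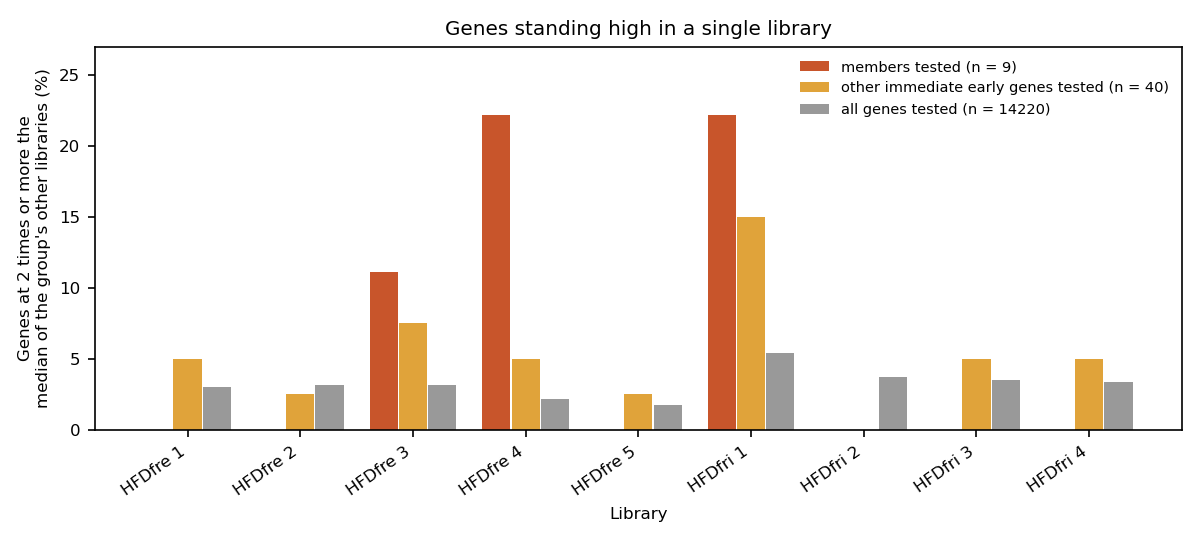
Share of genes (vertical axis, percent) at 2 times or more the median of the other libraries of their group, in each library (horizontal axis), for the 9 tested members, 40 other immediate early gene rows and all 14220 genes tested. Bars of the members stand in HFDfre 3, HFDfre 4 and HFDfri 1 only, and the bar of all genes is highest in HFDfri 1 at 5.40%.

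Of 27 genes that act upstream of the members, such as MAP kinases, serum response factor and its cofactors, all were tested. By edgeR 0 passed an adjusted p of 0.05, with 5 higher and 1 lower at an unadjusted p under 0.05, which is 22.2%, near the 21.2% of all genes tested. Their median log2 fold change was 0.19, beside -0.01 over all genes. limma-voom called 0, and DESeq2 called 3 (11.1%, against 7.26% of all genes tested), among them Rps6ka1 and Mkl1. DESeq2 gave no adjusted p for 1 of the 27 genes. Rps6ka1, a kinase downstream of ERK, was 11.3 to 16.5 CPM in HFDfre and 6.71 to 12.6 CPM in HFDfri (log2 fold change -0.57 ± 0.17, adjusted p = 0.109, edgeR). Mkl1, a cofactor of serum response factor, was 3.16 to 3.76 CPM in HFDfre and 3.97 to 6.00 CPM in HFDfri (0.52 ± 0.15, adjusted p = 0.101, edgeR). Its relative Mkl2 had a log2 fold change of 0.71 ± 0.49 (adjusted p = 0.441, edgeR), and Elk1, which binds beside serum response factor, had 0.51 ± 0.20 (adjusted p = 0.187, edgeR).

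The heat shock genes, another readily induced class, peaked in HFDfri 3 for 7 of 10 genes and in HFDfri 1 for the other 3. All 10 were tested and had fitted values above 0, with a median log2 fold change of 0.63, beside -0.01 over all genes. By edgeR 0 passed an adjusted p of 0.05 and 6 had an unadjusted p under 0.05 (60.0%, against 21.2% of all genes tested). limma-voom called 0, and DESeq2 called 2 (Hsp90aa1 and Hspd1, 20.0%, against 7.26% of all genes tested). DESeq2 gave no adjusted p for 2 of the 10 heat shock genes. Hspa1b, an inducible HSP70 gene, reached 76.1 CPM in HFDfri 3 and 1.65 to 9.90 CPM elsewhere, and its near-identical copy Hspa1a reached 22.3 CPM there and 0.514 to 2.72 CPM elsewhere. Reads of this pair may have been split between them. The cochaperones Hsph1 and Bag3 were also highest in HFDfri 3, at 107.0 and 47.4 CPM, with log2 fold changes of 1.05 ± 0.31 (adjusted p = 0.101, edgeR) and 0.81 ± 0.33 (adjusted p = 0.189, edgeR). Hsp90aa1 (284.9 CPM, beside 255.3 CPM in HFDfri 3), Hspe1 (140.5 beside 116.6 CPM) and the small heat shock protein gene Hspb1 (43.1 beside 11.8 CPM) peaked in HFDfri 1, where Egr1 was highest. Of the members, Fos had its highest value in HFDfri 3. Egr1 at 4.98 CPM there was far below HFDfri 1 (34.1 CPM) and just above the highest HFDfre value (4.79 CPM).

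The libraries were liver by their markers, with 7 hepatocyte genes summing to 91905 to 98205 CPM in HFDfre and 82095 to 114760 CPM in HFDfri. In bulk tissue, fewer cells of a type and less RNA per cell cannot be told apart. The 10 Kupffer cell and macrophage markers summed to 100.4 to 205.3 CPM in HFDfre and 108.2 to 156.8 CPM in HFDfri, and their highest library was HFDfre 2, where the members were lowest. The 8 endothelial markers summed to 95.9 to 127.3 and 88.7 to 127.3 CPM, the 8 stellate cell and fibroblast markers to 117.5 to 180.7 and 93.8 to 159.1 CPM, and the 6 cholangiocyte markers to 25.5 to 46.5 and 23.9 to 47.0 CPM in HFDfre and HFDfri. Neutrophil (6 genes) and lymphocyte (8 genes) markers summed to at most 3.87 and 4.63 CPM in any library. The 5 erythroid markers summed to 447.2 to 614.3 CPM in HFDfre and 273.0 to 889.0 CPM in HFDfri. Of 7 pancreas markers Cel, Cpa1, Pnlip and Prss2 were at 0, and of 5 adipocyte markers Adipoq and Plin1 were at 0 in all libraries. HFDfri 1, where Egr1 spiked, was highest for the hepatocyte, cholangiocyte and pancreas sums, the last mostly Cela1 (25.3 of 25.6 CPM). HFDfre 3 was highest for the lymphocyte sum and HFDfre 4 for the adipocyte sum (88.9 CPM). The adipocyte sum in HFDfre 4 came from Cidec (38.9 CPM) and Cfd (50.0 CPM). The part of these differences in the levels of the members was not tested. The share of counts taken by the single gene Gm26924 ran from 0.466% to 11.1% and that of mitochondrial genes from 8.93% to 19.8%, the latter highest in HFDfre 3, where Zfp36 and Dusp1 peaked.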

How the data were processed

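RNA was extracted from liver with TRIzol. The library kit differs between the labels and the methods of the study. Submitters' processing notes name HISAT2, StringTie and mm10, and the annotation and use of strand are not given in the sources used here. The authors deposited estimated counts per gene, whole numbers not scaled between libraries. The members and lists were chosen with earlier results of these data known.

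Low counts were filtered by group with filterByExpr, and HFDfri was compared with HFDfre by the quasi-likelihood test of edgeR 4.0.16 (R 4.3.3, TMM, no covariate), with Benjamini-Hochberg adjustment over all tested genes and a threshold of 0.05. The SE was the size of the log2 fold change divided by the square root of F. Log2 CPM used a prior count of 2. All members were named, and of each list other than the markers every gene past the threshold, or up to 4 with the largest change at a mean log2 CPM of at least 1. The marker lists were described by their sums, and 1 gene of them passed, Alas2 (log2 fold change 0.40, adjusted p = 0.0486). Maff, Hsp90aa1, Hspd1, Hspe1, Hspb1, Socs3, Prdx2, Cela1, Cidec, Cfd and the genes printed with their spikes were named after their values were seen. Alternatives were DESeq2 1.42.0, limma-voom (limma 3.58.1), other scalings, filters and dispersions, and leaving out each library. The test was checked on simulated data. Coordinates are from GENCODE M21, which held 96.5% of the gene identifiers. Pairs of libraries, within and between the groups, correlated at r = 0.959 to 0.977 across genes, and none was a copy of another. Fosb missed the filter, so 8 relations to Fos were tested. The values of 1 upstream gene are not reported here.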

Additional observations from a re-analysis of the deposited data

Results flagged for a closer look

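Of 20 sets of values searched (the 9 tested members and their mean standardised level, in each group), 2 held a library whose gap to its neighbour exceeded Dixon's 95% critical value, and chance alone gives about 1 such set. Egr1 in HFDfri 1 had a log2 CPM of 5.09, against 1.87 to 2.33 in the other HFDfri libraries. Ier3 in HFDfre 5 had a log2 CPM of -3.31, against -1.69 to -1.08 in the other HFDfre libraries, and it rested on 5 estimated counts.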

How the results depend on the processing

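No member passed an adjusted p of 0.05 under any of the 18 alternatives that gave it one (DESeq2 gave none for Egr1 and Ier3, and Ier3 missed the minimum of 10 counts), and Egr1 ranged from 0.39 (without HFDfri 1) to 2.11 on the log2 scale with adjusted p from 0.0999 to 0.320. Of all genes, edgeR called 150, DESeq2 1033, library totals 76, no filter 72, the Gm26924 share as a covariate 93, and leaving out 1 library 6 (without HFDfre 3 or HFDfre 5) to 1106 (without HFDfri 1). With a replicate block edgeR called 0 genes, 2536 at an unadjusted p under 0.05. Deviations of libraries with the same number correlated at -0.136 to 0.0813, and 2 of 4 HFDfri libraries correlated best with their own number. The labels name no pairs, and libraries with the same replicate number carry unlike column names. The replicate numbers follow the order of the titles, so the replicate block joined libraries that no label pairs. Of other immediate early genes DESeq2 called 3 and leaving out 1 library 0 to 2 (Btg2 and Maff without HFDfri 1, Sik1 without HFDfri 2). Of upstream genes DESeq2 called 3 and leaving out 1 library 0 to 1 (1 without HFDfri 1). Of heat shock genes, Hspd1 was called without HFDfri 1 and Hsp90aa1 without HFDfri 2. Spiking members fell from 5 to 1 at 3 times the median. Members near 0 changed sign. Jun was 0.05 by limma-voom, 0.02 with the replicate block and -0.23 to 0.22 when leaving out 1 library (above 0 without HFDfre 3, HFDfre 4 or HFDfri 2). Ier2 was 0.00 with library totals and -0.35 to 0.07 (above 0 without HFDfre 1, HFDfri 2, HFDfri 3 or HFDfri 4). Ier3 was -0.23 with the replicate block and -0.17 to 0.30 (below 0 without HFDfre 5 or HFDfri 4). Junb was -0.07 to 0.52 (below 0 without HFDfri 1) and Zfp36 -0.17 to 0.11 (above 0 without HFDfre 3). The causes were not tested. Without the filter, Fosb was -0.84 ± 0.90 (adjusted p = 0.649, edgeR). Fosb, Ier3 and Fos had the fewest counts of the members, and the part of depth in their results was not tested.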

Other observations

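HFDfri 1, the library in which Egr1 spiked, held other genes that stood high, and their order depends on the measure. By the ratio to the median of the other HFDfri libraries, Egr1 ranked 12 of 10123 genes. By the ratio to the highest of all other libraries it ranked 1, at 6.84 times, followed by Mt1 (5.89 times), Mt2 (5.72 times) and Saa2 (4.89 times). The genes described here were picked with their values in view. The metallothioneins Mt2 and Mt1, which bind zinc and copper, were 693.9 and 1109 CPM there, 82.0 and 58.7 times the median of the other HFDfri libraries. The acute phase genes Saa2 (415.0 CPM, 29.5 times), Lcn2 (60.8 CPM, 19.0 times), Saa1 (585.8 CPM, 16.0 times) and Orm2 (40.4 CPM, 8.77 times) stood high in the same library. So did Socs2 (83.9 CPM, 7.78 times), an inhibitor of cytokine and growth hormone signalling, and the chemokine gene Cxcl1 (35.2 CPM, 7.0 times). HFDfri 4 was the second highest library for Mt1 (188.3 CPM), Mt2 (121.3 CPM), Saa1 (267.2 CPM) and Saa2 (84.9 CPM), while Egr1 was 3.62 CPM in it, the lowest of the HFDfri libraries. Over the groups, the log2 fold changes of Mt1 (2.02, adjusted p = 0.260), Mt2 (2.63, adjusted p = 0.208), Saa1 (2.31, adjusted p = 0.130) and Saa2 (2.36, adjusted p = 0.187) did not pass edgeR's quasi-likelihood test.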
